A study of Mus musculus with 127 samples.

Results

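Hspa5, Hsp90b1, Calr, Pdia4, Pdia6, Dnajb9, Sdf2l1, Manf, Herpud1 and Xbp1 encode chaperones of the endoplasmic reticulum (ER) and proteins of the unfolded protein response. They were taken by name, with earlier results of these data known, so shares of all genes given beside them are a background and not a test. They are 10 of the 23366 genes counted in a bulk RNA sequencing series of mouse blood stem and progenitor cells. All 10 were found in the count table. SMART-seq2, which copies whole transcripts and needs few cells, was applied to long-term stem cells (LT), short-term stem cells (ST) and multipotent progenitors (MPP) sorted from bone marrow. In the stimulated course, the HSPC medium held 100 ng/ml LPS and 1 ug/ml Pam3csk4, ligands of the Toll-like receptors Tlr4 and Tlr2, with samples at 0, 0.5, 1, 2, 4, 8 and 12 h. It was run on young mice 1, 2 and 3 and on old mouse 2. The course without ligand, in the same medium, was run on young mouse 4 and on old mouse 4, with samples at 0, 2, 4 and 8 h. For young mice 1 and 2, and in most libraries of old mouse 2, the label at 0 h names the ligands; such libraries were taken, like the rest at 0 h, as cells before stimulation. The labels used here give age as young or old.

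Proteins that enter the ER are folded there by chaperones. When unfolded proteins build up, the sensors Ern1 (IRE1), Eif2ak3 (PERK) and Atf6 raise the transcription of chaperone and degradation genes through the factors Xbp1, Atf4 and cleaved Atf6. Toll-like receptors are themselves folded in the ER with the help of Hsp90b1, and in mouse macrophages their ligands are known to activate IRE1 and Xbp1.

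The best known promoter sequence of these genes is the ER stress response element (ERSE), spelled CCAAT, 9 bases of any kind and CCACG, and bound by NF-Y together with Atf6 or Xbp1. The windows printed here show it where it was found, with a Dnajb9 window that holds no match for contrast. They lie before the gene start, are read 5′ to 3′ on the strand of the gene from RefSeq promoters of build GRCm38.p6, and carry in capitals ERSE or, in Herpud1, the shorter ERSE-II (ATTGG, 1 base of any kind and CCACG). In Calr and at the match of Hsp90b1 nearer the start the capitals hold the reverse complement.
Hspa5: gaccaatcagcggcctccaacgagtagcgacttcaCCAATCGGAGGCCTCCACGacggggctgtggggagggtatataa
Hsp90b1: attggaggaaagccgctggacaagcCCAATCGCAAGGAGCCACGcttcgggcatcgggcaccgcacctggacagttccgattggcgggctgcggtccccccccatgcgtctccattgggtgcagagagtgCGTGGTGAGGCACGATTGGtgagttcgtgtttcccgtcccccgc
Calr: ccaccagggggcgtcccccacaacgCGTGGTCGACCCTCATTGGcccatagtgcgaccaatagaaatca
Pdia6: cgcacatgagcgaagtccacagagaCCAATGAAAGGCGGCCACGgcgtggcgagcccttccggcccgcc
Herpud1: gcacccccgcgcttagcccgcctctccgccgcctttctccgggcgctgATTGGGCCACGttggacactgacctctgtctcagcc
Dnajb9: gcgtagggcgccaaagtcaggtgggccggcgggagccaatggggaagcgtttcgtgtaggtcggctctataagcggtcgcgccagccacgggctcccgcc
The windows are chr2:34771990-34772068 (plus strand) for Hspa5, chr10:86705508-86705681 (minus) for Hsp90b1, chr8:84847050-84847118 (minus) for Calr, chr12:17266466-17266534 (plus) for Pdia6, chr8:94386329-94386412 (plus) for Herpud1 and chr12:44210069-44210168 (minus) for Dnajb9. Promoters of 300 bases, 250 before the start and 50 after it, were at hand for 9 of the 10 genes, all but Manf. ERSE, searched on both strands, was found in 4 of the 9 (Hspa5, Hsp90b1, Calr and Pdia6) and in 0.119% of 32851 promoters. ERSE-II was found in 1 of the 9, Herpud1, and in 0.0365% of promoters. TGACGTGG, the core of the unfolded protein response element, was found in 0 of the 9 and in 0.676% of promoters, and the cyclic AMP response element TGACGTCA in 0 of the 9 and in 1.79%. A match describes these letters and does not show that a factor was bound.

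**Figure D1:**
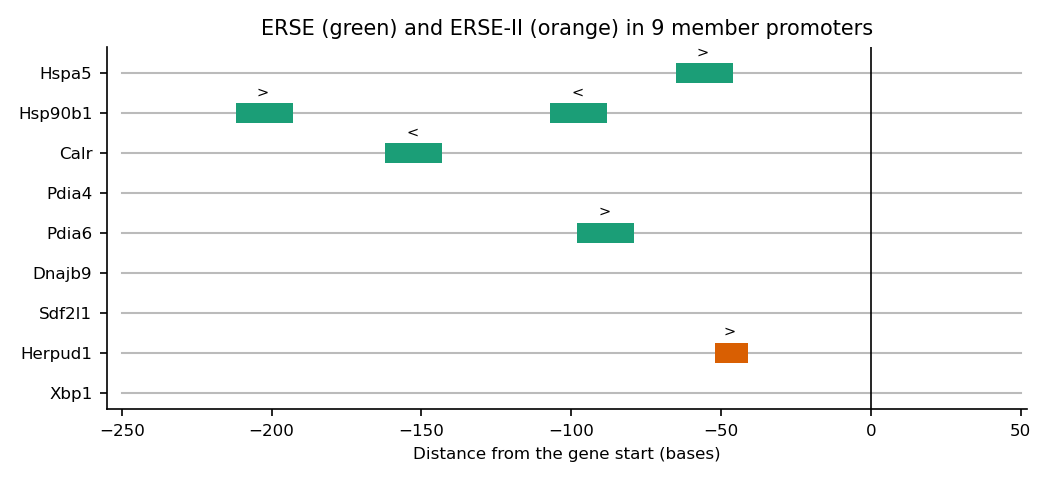
Positions of ERSE and ERSE-II in bases from the gene start, in the 9 promoters from 250 bases before the start to 50 after it. Hsp90b1 held 2 ERSE matches, Hspa5, Calr and Pdia6 1 each, and Herpud1 1 ERSE-II.

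Values are CPM, the count of a gene per 1000000 counts of its library. CPM does not correct for gene length, so levels are compared between samples and not between genes. After technical repeats of 1 mouse, cell type and time were summed there were 108 libraries of 990801 to 11764630 counts, with a median of 4517622 in stimulated libraries and 2142171 in those without ligand. Fewer than 8000 genes were detected in 9 libraries, 7 of young mouse 1 (LT and ST) and 2 of young mouse 2 (LT). None was of MPP, and those of ST were at 4, 8 and 12 h. Leaving these libraries out can still change results in MPP, and in ST at other times, because all groups share 1 fit. Transcripts of 6 neutrophil granule genes summed at 0 h to 43969 to 54992 CPM for young mouse 1, 20662 to 34765 for mouse 2, 98.8 to 239.8 for mouse 3, 60918 to 64447 for mouse 4 and 16764 to 22034 in the old mice. Kit, a receptor of blood progenitors, was at 145 to 1448 CPM at 0 h. Slamf1, a marker of LT, had a median of 26.7 CPM in LT at 0 h, 0 in ST and 0.774 in MPP.

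Hspa5 (BiP), the main chaperone of the ER and the protein that holds the stress sensors inactive, was high within 1 h in the stimulated course. In ST of young mice 1, 2 and 3 it stood at 375, 589 and 414 CPM at 0 h, 1148, 1436 and 1474 at 0.5 h, 1559, 1417 and 2262 at 1 h, 1044, 1210.4 and 1163 at 2 h, 959, 1167 and 1517 at 4 h, 1128, 2024 and 1573 at 8 h and 1223, 1623 and 1017 at 12 h. Every stimulated ST library of these mice was above all 3 of their 0 h libraries. Hspa5 rose in ST at all 6 times, by a log2 change of 1.59 ± 0.34 at 0.5 h (SE, n = 3 mice, edgeR adjusted p = 0.0189), 2.12 ± 0.35 at 1 h (adjusted p = 0.000203) and 1.86 ± 0.34 at 8 h (adjusted p = 0.00155), with adjusted p between 0.0144 and 0.0382 at the other times. All times share the same 0 h libraries. The 3 technical repeats of young mouse 1 at 1 h ranged between 641 and 2159 CPM. The course without ligand had no sample at 0.5 or 1 h, so the early rise has no counterpart in culture alone. At 2 h without ligand Hspa5 averaged 969 CPM in ST, against 613 at 0 h (n = 2 mice). In LT without ligand it averaged 1005 CPM at 2 h, against 718 at 0 h.

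In MPP Hspa5 was at 1331, 1818 and 2099 CPM at 1 h and at 1158, 2237 and 2565 at 8 h, against 646, 698 and 642 at 0 h. It rose at both times (log2 change 1.53 ± 0.34, edgeR adjusted p = 0.0214, and 1.71 ± 0.34, adjusted p = 0.00464). With mouse as a block it also passed at 2 h (adjusted p = 0.0102, unblocked 0.0863) and 12 h (0.00535, unblocked 0.0547), where the blocked fit called 0.629% and 0.76% of all genes higher; without the libraries of fewer than 8000 detected genes it passed at both times too (0.0253 and 0.0181). In LT Hspa5 was at 1197, 1034 and 1589 CPM at 0.5 h and 880.0, 1551 and 2292 at 1 h, against 961, 705 and 524 at 0 h. The groups overlapped at 1 h, where young mouse 1 was below its own 0 h value, and not at 0.5 h. The change at 1 h in LT did not pass (1.27 ± 0.34, edgeR adjusted p = 0.129). It did with mouse as a block (1.18 ± 0.29, 0.0402, with 0.468% of all genes called higher) and without young mouse 1 (1.86 ± 0.37, 0.0176), and by DESeq2 (adjusted p = 0.0153). In bulk samples more RNA per cell and more cells that hold it cannot be told apart.

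Herpud1, a membrane protein that helps pass misfolded proteins out of the ER for degradation, was highest at 2 h. In LT it was at 334, 620.0 and 544 CPM at 2 h, against 204, 149.5 and 112 at 0 h. In ST it was at 586, 693 and 760.0 CPM at 2 h, against 171, 116 and 103 at 0 h. In MPP it was at 510.4, 728 and 733 CPM at 2 h, against 132, 129 and 112 at 0 h. No 2 h library overlapped a 0 h library, and Herpud1 rose in all 3 cell types (log2 change in LT 1.78 ± 0.37, edgeR adjusted p = 0.00787; ST 2.51 ± 0.38, 5.20e-05; MPP 2.62 ± 0.38, 2.12e-05; n = 3 mice each). At 0.5 h in ST, when Hspa5 had risen, Herpud1 averaged 206 ± 11.2 CPM, against 129.9 ± 36.3 at 0 h (SD, n = 3; edgeR adjusted p = 1). In ST it rose at 1 and 2 h. At 4 h it did not pass (edgeR adjusted p = 0.0618), and did with mouse as a block (0.0123, 0.6% of all genes called higher) and without the libraries of fewer than 8000 detected genes (0.0198, 0.271%). The latter fit left out the ST library of young mouse 1 at 4 h. In MPP it rose at 1, 2, 4, 8 and 12 h and was still at 334, 569 and 635 CPM at 8 h (log2 change 2.17 ± 0.38, edgeR adjusted p = 0.000543). In all 12 stimulated courses, 4 mice by 3 cell types, its highest value was at 2 h. Without ligand Herpud1 was also higher at 2 h than at 0 h, with means of 298 against 149 CPM in LT. In ST without ligand the means were 318 against 156 CPM (n = 2 mice).

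Dnajb9 (ERdj4), a co-chaperone of Hspa5 that helps keep IRE1 inactive, had early differences that did not pass. At 0.5 h it was at 197, 190.2 and 273 CPM in LT, against 48.8, 48.0 and 62.6 at 0 h. In ST it was at 221, 219 and 246 CPM at 0.5 h, against 40.1, 29.2 and 62.1 at 0 h. In MPP it was at 222, 160.3 and 178 CPM at 0.5 h, against 42.5, 33.0 and 45.0 at 0 h. The groups overlapped in no cell type. The log2 changes were 2.07 ± 0.78 in LT, 2.43 ± 0.79 in ST and 2.29 ± 0.78 in MPP (SE, n = 3 mice; edgeR adjusted p = 1, 0.993 and 1; unadjusted 0.0104, 0.00333 and 0.0052). Without the libraries of fewer than 8000 detected genes, 1 of which held 0.241 CPM of Dnajb9 (young mouse 1, LT, 2 h), it passed at 0.5 h in ST (2.45 ± 0.49, adjusted p = 0.00948) and MPP (2.33 ± 0.49, 0.0176), where 0.245% and 0.205% of all genes were called higher. Old mouse 2, which entered none of these tests, had 299.9 CPM at 0.5 h in LT, 219 in ST and 192 in MPP, against 35, 57.1 and 40.7 at 0 h.

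Xbp1, the transcription factor whose mRNA IRE1 splices, was highest late; gene counts do not separate its spliced and unspliced forms. In ST it was at 433, 441 and 426 CPM at 8 h, against 145, 192 and 141 at 0 h, and it rose (log2 change 1.53 ± 0.36, n = 3 mice, edgeR adjusted p = 0.0385). In MPP it was at 447, 534 and 474 CPM at 8 h, against 271, 224 and 144 at 0 h, without overlap. That change did not pass (1.33 ± 0.36, edgeR adjusted p = 0.123). It did with mouse as a block (1.32 ± 0.33, 0.0268), where 0.6% of all genes were called higher, and without the libraries of fewer than 8000 detected genes (1.44 ± 0.34, 0.0352). In LT it was at 257, 373 and 468 CPM at 8 h, against 155, 300.4 and 125 at 0 h, with overlap (0.97 ± 0.35, adjusted p = 0.326). Of the 12 stimulated courses, 10 were highest at 8 h.

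**Figure D2:**
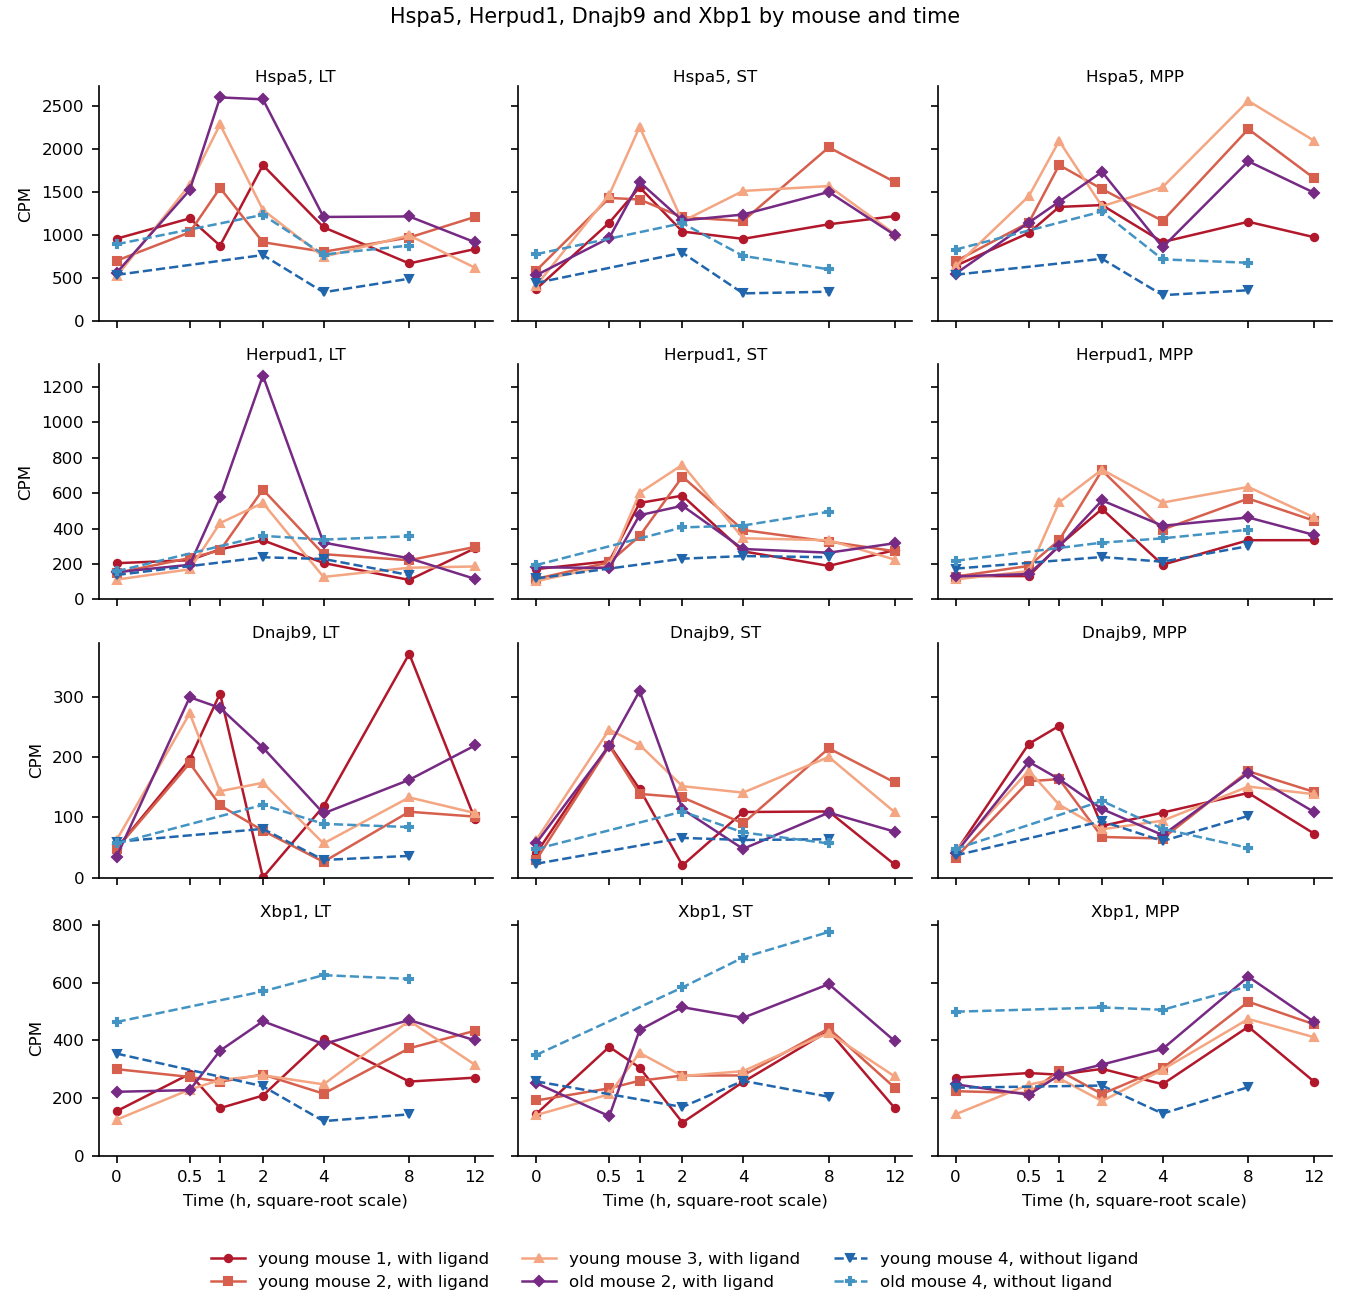
CPM of Hspa5, Herpud1, Dnajb9 and Xbp1 (rows) in LT, ST and MPP (columns) against time in h, 1 line per mouse, solid with ligand and dashed without. In ST the 3 young stimulated lines of Hspa5 stay above their 0 h values of 375 to 589 CPM at every later time.

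Counted over the 10 genes, 0, 0, 1, 0, 0 and 0 rose in LT at 0.5, 1, 2, 4, 8 and 12 h, where 0.146%, 0.249%, 0.292%, 0.241%, 0.234% and 0.227% of all 13678 genes tested were called higher. In ST 1, 2, 2, 1, 2 and 1 of the 10 rose at these times, against 0.146%, 0.3%, 0.3%, 0.256%, 0.256% and 0.271% of all genes. In MPP 0, 2, 1, 1, 2 and 1 of the 10 rose, against 0.095%, 0.234%, 0.263%, 0.336%, 0.292% and 0.3% of all genes. These 17 calls were of Hspa5, Herpud1 and, in ST at 8 h, Xbp1, and all were of a higher level. Of the 17, 13 passed again without young mouse 1, 6 without young mouse 3 and 0 without young mouse 2, and every change kept its sign. The log2 changes spanned 1.46 to 2.95 without young mouse 1, 1.30 to 2.51 without mouse 3 and 1.55 to 2.57 without mouse 2. The calls lost without young mouse 2 were thus lost at changes of like size. The share of all genes called in these fits is not given here.

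The other 6 genes act mainly on proteins as they fold, and several were low at 2 h. Sdf2l1, a partner of Hspa5 and its co-chaperones, was at 9.20, 12.3 and 4.38 CPM in ST at 2 h, against 85.4, 104 and 34.1 at 0 h. In MPP it was at 35.7, 17.4 and 28.1 CPM at 2 h, against 105, 103 and 61 at 0 h. Neither pair of groups overlapped. The log2 change was -2.99 ± 0.74 in ST (n = 3 mice, edgeR adjusted p = 0.0541) and -1.51 ± 0.70 in MPP (adjusted p = 1). That in ST passed with mouse as a block (-2.98 ± 0.68, adjusted p = 0.0144), where 0.0512% of all genes were called lower, and without the libraries of fewer than 8000 detected genes (-2.93 ± 0.73, 0.0486, 0.0529%). In all 12 stimulated courses Sdf2l1 was lowest at 2 or 4 h.

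Pdia4, a disulfide isomerase, was at 90.9, 85.5 and 111 CPM in MPP at 2 h, against 240.0, 205 and 219 at 0 h (log2 change -0.99 ± 1.1, edgeR adjusted p = 1). Hsp90b1 (Grp94), which folds Toll-like receptors and integrins, was at 296, 398 and 366 CPM in MPP at 2 h, against 540.2, 447 and 443 at 0 h (-0.21 ± 0.38, adjusted p = 1). Of the 10 genes, 4 lay lower without overlap in MPP at 2 h (Hsp90b1, Pdia4, Sdf2l1, Manf), as did 24.9% of all genes. In ST 2 did (Pdia4, Sdf2l1), with 12.1% of all genes, and in LT 1 (Pdia4), with 10.2%. In young mouse 1 Pdia4 had 0 counts in LT at 2 and 12 h and in ST at 4 h, and Pdia6 in LT at 4 h, all in libraries of fewer than 8000 detected genes. A floor of 3 counts in these libraries is 0.722, 1.45, 0.530 and 0.717 CPM.

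At 8 h the means of these 6 genes were above those at 0 h in ST and MPP, and 0 of the 6 passed by edgeR (3 in ST and 3 in MPP had an unadjusted p under 0.05). The other tools called more. DESeq2 called Manf in MPP, and Manf and Hsp90b1 in ST, with 0.881% and 1.33% of all genes called higher. Limma voom called all 6 in MPP, and Manf and Hsp90b1 in ST, with 4.72% and 0.621% called higher. Manf, an ER protein that is also secreted under stress, was at 186, 324 and 294 CPM in MPP at 8 h, against 74.4, 100.3 and 71.9 at 0 h. In ST it was at 215, 287 and 257 CPM at 8 h, against 109, 67.5 and 52.4 at 0 h. These groups did not overlap (log2 change in MPP 1.84 ± 0.54, edgeR adjusted p = 0.24; ST 1.82 ± 0.54, 0.251). Without the libraries of fewer than 8000 detected genes Manf passed in MPP (1.95 ± 0.48, adjusted p = 0.0458), where 0.404% of all genes were called higher. No MPP library was left out in that fit.

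Pdia6, another disulfide isomerase, was at 384, 769 and 978 CPM in MPP at 8 h, against 234, 335 and 292 at 0 h. In ST it was at 457, 659 and 732 CPM at 8 h, against 253, 271 and 239 at 0 h. Here too the groups did not overlap (MPP 1.43 ± 0.75, edgeR adjusted p = 1; ST 1.36 ± 0.74, 0.667). Hsp90b1 in ST was at 669, 869 and 820.0 CPM at 8 h, against 345, 383 and 324 at 0 h, also without overlap (1.25 ± 0.39, adjusted p = 0.294).

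Young mouse 1 stood apart in MPP at 8 h. Calr, a lectin chaperone of glycoproteins, was at 336, 832 and 969 CPM in young mice 1, 2 and 3 at 8 h, against 349, 331 and 339.7 at 0 h. Pdia4 was at 168, 572 and 588 CPM at 8 h, against 240.0, 205 and 219 at 0 h. Sdf2l1 was at 48.1, 246 and 302 CPM at 8 h, against 105, 103 and 61 at 0 h. In each gene young mice 2 and 3 were above the 0 h range and young mouse 1 was below its own 0 h value. Granule transcripts in MPP at 8 h summed to 78555 CPM for young mouse 1, 39144 for mouse 2 and 201 for mouse 3; their part in these values was not tested.

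**Figure D3:**
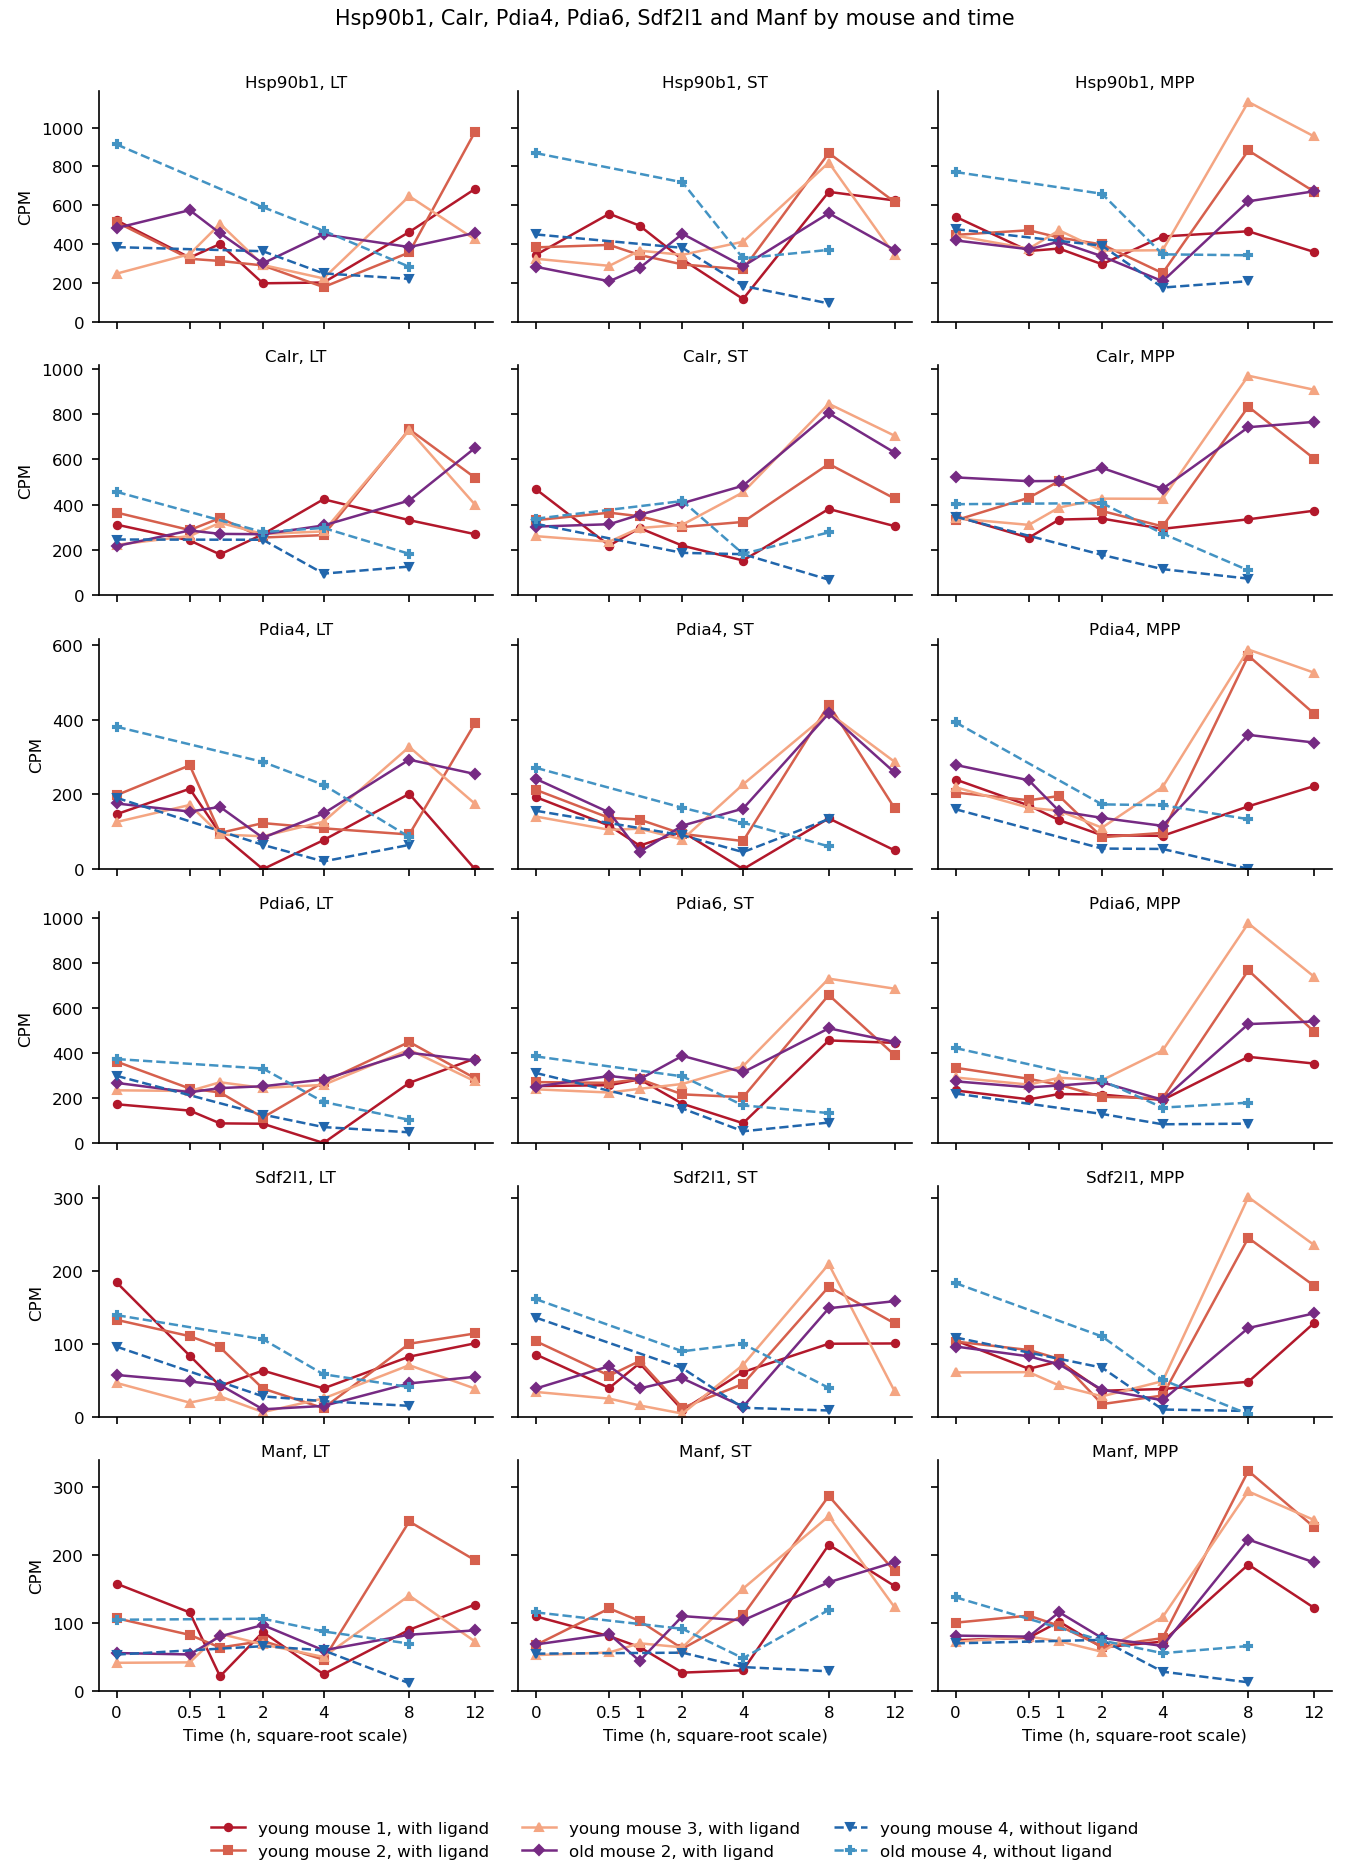
CPM of Hsp90b1, Calr, Pdia4, Pdia6, Sdf2l1 and Manf (rows) in LT, ST and MPP (columns) against time in h, 1 line per mouse, solid with ligand and dashed without. In MPP at 8 h young mice 1, 2 and 3 and old mouse 2 lie above both mice without ligand in all 6 genes.

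Over the 10 genes the median log2 change at 8 h was 0.53 in LT (9 of 10 above 0), 1.31 in ST (10 of 10) and 1.38 in MPP (10 of 10), while over all genes tested it was -0.37, -0.26 and -0.21, with 35.8%, 38.3% and 40.2% above 0. Without young mouse 3 the median in LT was 0.24, with 6 of 10 above 0. Every 8 h value lay above every 0 h value for 1 of 10 genes in LT, 7 in ST and 6 in MPP, and for 2.84%, 3.66% and 6.32% of all genes. At 12 h this held for 1, 4 and 7 of 10, and for 2.91%, 2.94% and 6.38% of all genes.

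Whether LT responded less than the other cells was tested on the difference itself. The 8 h change in LT minus that in MPP was below 0 for 10 of 10 genes, with a median of -0.74, against -0.23 over all genes. The change in LT minus that in ST was below 0 for 9 of 10, with a median of -0.88, against -0.10. Over all genes 41.9% and 46.0% were above 0. Without young mouse 2 the medians were -0.44 and -0.59, and 4 and 3 of 10 were above 0. Hspa5 differed by -1.38 ± 0.47 between LT and MPP and by -1.53 ± 0.47 between LT and ST (SE, n = 3 mice, edgeR adjusted p = 1 and 1). By edgeR none of the 10 passed, and 0% of all genes did in both comparisons (441 and 594 genes had an unadjusted p under 0.05). DESeq2 called Herpud1 lower in LT against MPP, with 1.73% of all genes, and limma voom 0 of the 10.

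Cells kept without ligand show the course in culture alone. In MPP Calr was at 73.9 and 110.4 CPM at 8 h in young mouse 4 and old mouse 4, against 347 and 402 at 0 h. Sdf2l1 was at 7.97 and 3.72 CPM at 8 h, against 109 and 184 at 0 h. Pdia6 was at 86.1 and 179 CPM at 8 h, against 220.1 and 423 at 0 h. Both mice were lower at 8 h in each of the 3. Herpud1 went the other way, with 301 and 393 CPM at 8 h, against 174 and 218 at 0 h. By edgeR none of the 10 passed in LT, ST or MPP, where 0.201%, 0.236% and 0.236% of all 14401 genes were called in either direction. In MPP DESeq2 called Calr and Sdf2l1 lower and limma voom Sdf2l1, with 2.44% and 5.67% of all genes. Blocking on the mouse, Sdf2l1 (-4.12 ± 1.02, edgeR adjusted p = 0.0229; unblocked 0.0685) and Calr (-1.82 ± 0.44, 0.0187; unblocked 0.219) passed in MPP (n = 2 mice), where 0.312% of all genes were called lower. The median of the 10 log2 changes was -0.91 in LT, -0.44 in ST and -0.96 in MPP, against 0, 0 and -0.07 over all genes. Without young mouse 4 that in ST was -0.14.

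The 8 h changes of the 4 mice with ligand were set against those of the 2 mice without. Every change with ligand lay above every change without it for 6 of 10 genes in LT, 6 in ST and 10 in MPP, and for 6.37%, 9.05% and 15.2% of all genes. The median log2 difference over the 10 was 1.56 in LT, 1.85 in ST and 2.17 in MPP, against 0, 0.01 and 0.17 over all genes. In MPP Calr averaged 719.8 ± 273 CPM at 8 h with ligand (SD, n = 4), against 92.1 ± 25.9 without (n = 2), and the changes differed by 2.84 ± 0.65 on the log2 scale (edgeR adjusted p = 0.062). Sdf2l1 in MPP averaged 179 ± 115 CPM with ligand, against 5.84 ± 3.01 without (5.50 ± 1.26, adjusted p = 0.062). By edgeR without a block 0 of the 10 passed, and 0.0347%, 0.0903% and 0.0625% of all genes were called in LT, ST and MPP (730, 878 and 573 genes had an unadjusted p under 0.05). DESeq2 called Calr in LT, Hsp90b1, Hspa5 and Sdf2l1 in ST and Calr, Hspa5, Manf and Sdf2l1 in MPP, with 1.49%, 1.7% and 1.29% of all genes called higher. Limma voom called 0 in LT and ST and Calr, Hsp90b1, Manf and Sdf2l1 in MPP, with 0.208%, 0.562% and 2.33% of all genes.

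A fit that blocks on the mouse called 3 of 10 in MPP, namely Calr (2.87 ± 0.54, edgeR adjusted p = 0.00286), Hspa5 (1.97 ± 0.39, 0.00698) and Sdf2l1 (5.30 ± 1.19, 0.022). In ST 2 passed, Hspa5 (2.02 ± 0.39, edgeR adjusted p = 0.00396) and Hsp90b1 (2.72 ± 0.52, 0.00348), and in LT 0. The blocked fit called 0.264%, 0.257% and 0.0972% of all genes higher in MPP, ST and LT. No mouse was cultured both ways, so the ligand and the mouse cannot be told apart.

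Markers of B and plasma cells, which are known for high levels of these chaperones, differed between 8 h and 0 h in both courses. Summed over 10 genes they were in LT without ligand at 3.61 and 521 CPM at 8 h in young mouse 4 and old mouse 4, against 1271 and 2474 at 0 h. In ST they were at 51.3 and 909 CPM at 8 h, against 599 and 4724 at 0 h. In MPP they were at 281 and 1286 CPM at 8 h, against 242 and 2189 at 0 h. In young mice 1, 2 and 3 and old mouse 2 with ligand they were in LT at 66.9, 198, 154 and 287 CPM at 8 h, against 353, 453, 47.3 and 506 at 0 h. In ST they were at 574, 149.8, 232 and 287 CPM at 8 h, against 343, 204, 127 and 652 at 0 h. In MPP of these 4 mice they spanned 323 to 446 CPM at 8 h, against 308 to 671 at 0 h. The sums were lower at 8 h in both LT and ST of the mice without ligand, and higher or lower by mouse in those with it. The plasma cell marker Tnfrsf17 had 0 counts in both mice without ligand at 8 h in all 3 cell types. In the mice with ligand it was also at 0 CPM at 8 h in LT and ST. In MPP it was there at most at 0.64 CPM, so it did not set the courses apart. The part of such cells in the chaperone levels was not tested.

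**Figure D4:**
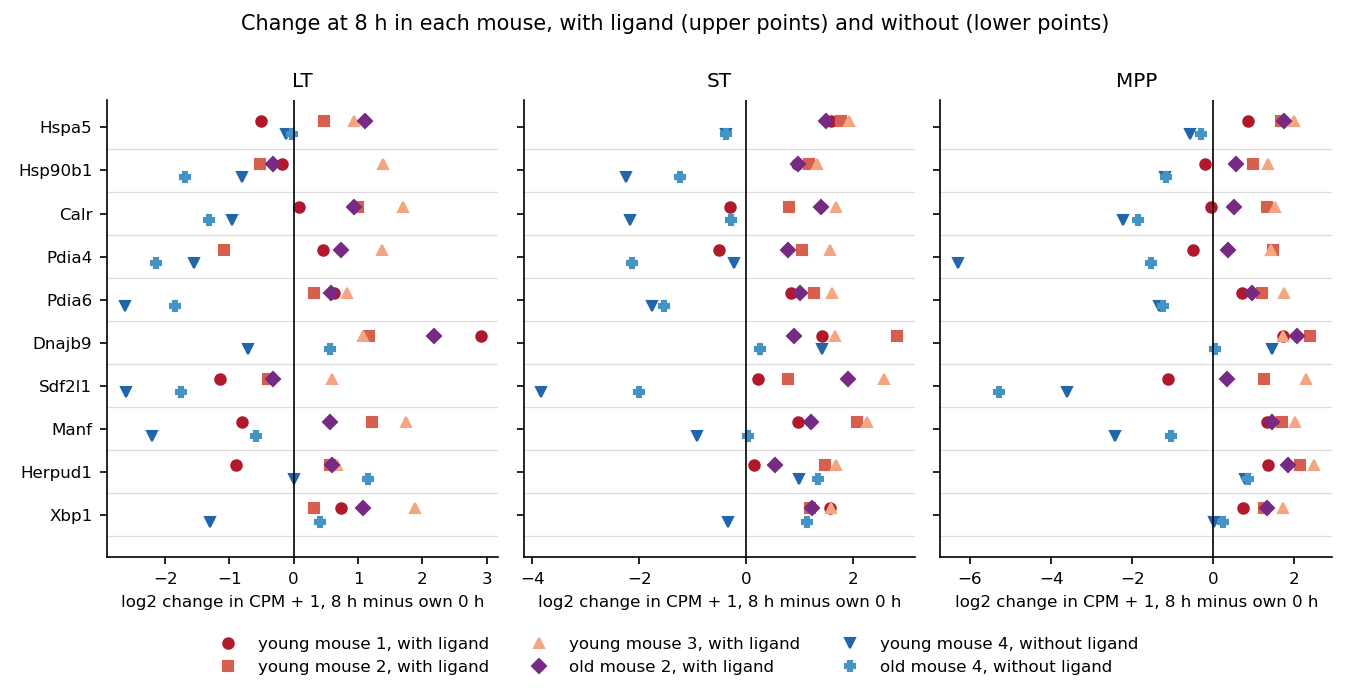
Change in log2(CPM + 1) at 8 h against 0 h for each gene (rows) in LT, ST and MPP, 1 point per mouse. In MPP all 4 points with ligand lie to the right of both points without it in all 10 genes, and in LT and ST in 6 genes each.

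At 2 h Hspa5 and Herpud1 separated the courses upward in ST and MPP, and 0 of 10 did in LT, where 5.74%, 8.16% and 4.12% of all genes did in ST, MPP and LT. Herpud1 in MPP was at 510.4, 728, 733 and 559 CPM at 2 h in young mice 1, 2 and 3 and old mouse 2 with ligand, against 239 and 320.4 in the mice without. Sdf2l1 in MPP separated downward, with 35.7, 17.4, 28.1 and 37.2 CPM with ligand, against 67.5 and 110.4 without; 12.4% of all genes did so. Dnajb9 separated in no cell type at 2 h, when the mice without ligand had 93.8 and 127 CPM in MPP, against 36.9 and 47.6 at 0 h. By edgeR none of the 10 passed in these differences at 2 or 4 h, with 0%, 0.0139% and 0.00694% of all genes called at 2 h in LT, ST and MPP and 0%, 0.00694% and 0.0278% at 4 h (448, 441, 157, 486, 587 and 345 genes at an unadjusted p under 0.05). DESeq2 called 0 of the 10 and limma voom Herpud1 in MPP at 2 h, with 0.396% of all genes called higher.

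Before culture no difference of the 10 genes between cell types passed by edgeR, DESeq2 or limma voom. Hspa5 averaged 682 ± 203 CPM in LT, 456 ± 93.4 in ST and 632 ± 65.4 in MPP (n = 4 young mice, SD), and LT differed from ST by 0.59 ± 0.26 on the log2 scale (edgeR adjusted p = 1). Of the 10 genes 0 passed in LT against MPP, LT against ST or ST against MPP, as did 0% of 11568 genes by edgeR (307, 323 and 116 at an unadjusted p under 0.05).

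No difference of the 10 with age passed by these tools either. The log2 difference, old minus young, was above 0 for 7 of 10 genes in LT, 9 in ST and 10 in MPP, with medians of 0.15, 0.47 and 0.36, while 50.4%, 47.1% and 46.3% of all genes were above 0. These counts rest on old mouse 4. Without it 1, 5 and 4 of 10 were above 0, with medians of -0.28, 0.0018 and -0.0088. Without old mouse 2 the medians were 0.43, 0.67 and 0.65. By edgeR 0% of 12983 genes were called in each cell type (440, 551 and 56 at an unadjusted p under 0.05). The old mice did not move together. Hsp90b1 in ST was at 282 and 869 CPM in old mice 2 and 4, against 324 to 449 in the 4 young mice, so 1 lay below the young range and 1 above it. Xbp1 in MPP was at 248 and 499.6 CPM in old mice 2 and 4, against 144 to 271 in the young mice. Old mouse 4 had the highest B and plasma cell sum of the 6 mice at 0 h in each cell type; its part was not tested.

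Over the 63 libraries of young mice 1, 2 and 3, Pearson's r of log2(CPM + 1) between pairs of Hsp90b1, Calr, Pdia4, Pdia6, Sdf2l1 and Manf had a median of 0.534 (0.234 to 0.746, 15 pairs). Pairs within Hspa5, Herpud1, Dnajb9 and Xbp1 had a median of 0.361 (0.0808 to 0.672, 6 pairs), and pairs between these groups one of 0.167 (-0.240 to 0.575, 24 pairs). The libraries share mice and depth, so these values are descriptions. Among 6860 genes with a mean of at least 20 CPM, the 10 most like Hspa5 by Pearson's r were Gadd45b (0.706), Nfkbiz (0.696), Cd69 (0.695), Arf4 (0.677), Tnfaip3 (0.674), Herpud1 (0.672), Nfkbia (0.662), Cd83 (0.637), Skil (0.609) and Cdkn1a (0.598). Herpud1 was the 1 other member among them, and Xbp1 had an r of 0.508 and Pdia4 one of 0.0692 with Hspa5.

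Of 13 genes of the Atf4 arm, the branch that PERK starts, 2 rose at 2 h in LT by edgeR (Herpud1 and Atf3), 3 in ST (also Atf4) and 2 in MPP (Herpud1 and Atf4), where 0.292%, 0.3% and 0.263% of all genes were called higher. The list's median log2 changes were 2.08, 2.23 and 2.53, against -0.33, -0.22 and -0.21 over all genes, and the other 10 genes passed at no time by edgeR. Over the 18 stimulated comparisons DESeq2 called 8 of the 13 genes at 1 or more times, and limma voom 10. Of their calls, 54 of 57 and 52 of 54 were of a higher level. Those tools also called more of all genes, in MPP at 8 h 0.881% and 4.72% higher, against 0.292% by edgeR. Atf4 itself averaged 408 ± 90.9 CPM at 1 h in LT, against 116 ± 20.9 at 0 h, and rose there and in ST and MPP (log2 change 1.94 ± 0.41, 2.07 ± 0.41 and 1.95 ± 0.41; edgeR adjusted p = 0.0105, 0.00357 and 0.0121). Atf3, a stress-induced transcription factor, averaged 328 ± 139.6 CPM at 0.5 h in LT, against 0.456 ± 0.789 at 0 h (SD, n = 3; edgeR adjusted p = 0.00671).

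Of 14 heat shock chaperones of the cytosol and mitochondria, Dnaja1 rose at 1 h in ST and MPP (1.60 ± 0.35 and 1.61 ± 0.35; edgeR adjusted p = 0.0141 and 0.019) and Hspa8 in ST (1.65 ± 0.35, 0.00992). Over the 18 stimulated comparisons DESeq2 called 8 of the 14 at 1 or more times, and limma voom 13. Of their calls, 27 of 33 and 40 of 43 were of a higher level. The share of all genes called at 1 or more of these times is not given here. The list's median at 1 h was 1.54 in LT, 1.62 in ST and 1.5 in MPP, against -0.13, -0.07 and -0.12 over all genes, and at 8 h 0.37, 0.18 and -0.06.

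The remaining ER lists had few calls by edgeR, and by limma voom more. Of 24 other chaperones and folding enzymes, 21 were above 0 in MPP at 8 h (median 0.64), where 40.2% of all genes were above 0 with a median of -0.21, and 1, Serp1, a membrane protein of the translocon, rose in MPP at 12 h, with 1520.5 ± 366 CPM, against 365 ± 138 at 0 h (2.19 ± 0.45, edgeR adjusted p = 0.00617). Of 30 genes of translocation and N-glycosylation, 30 were above 0 in MPP at 8 h, 28 in ST and 14 in LT, against 40.2%, 38.3% and 35.8% of all genes. None of the 30 passed at any time by edgeR (25 tests over the 18 comparisons had an unadjusted p under 0.05). DESeq2 called 1 of the 30, at a lower level. Limma voom called 21, and 33 of its 36 calls were of a higher level. The share of all genes called at 1 or more of the 18 comparisons is not given here. Of 21 degradation genes 1 passed, Derl1 in LT at 12 h (1.70 ± 0.40, edgeR adjusted p = 0.0403). Of 6 sensors and their processing proteins 0 passed at any time by edgeR or DESeq2 (1 and 3 tests had an unadjusted p under 0.05) and 2 did by limma voom.

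**Figure D5:**
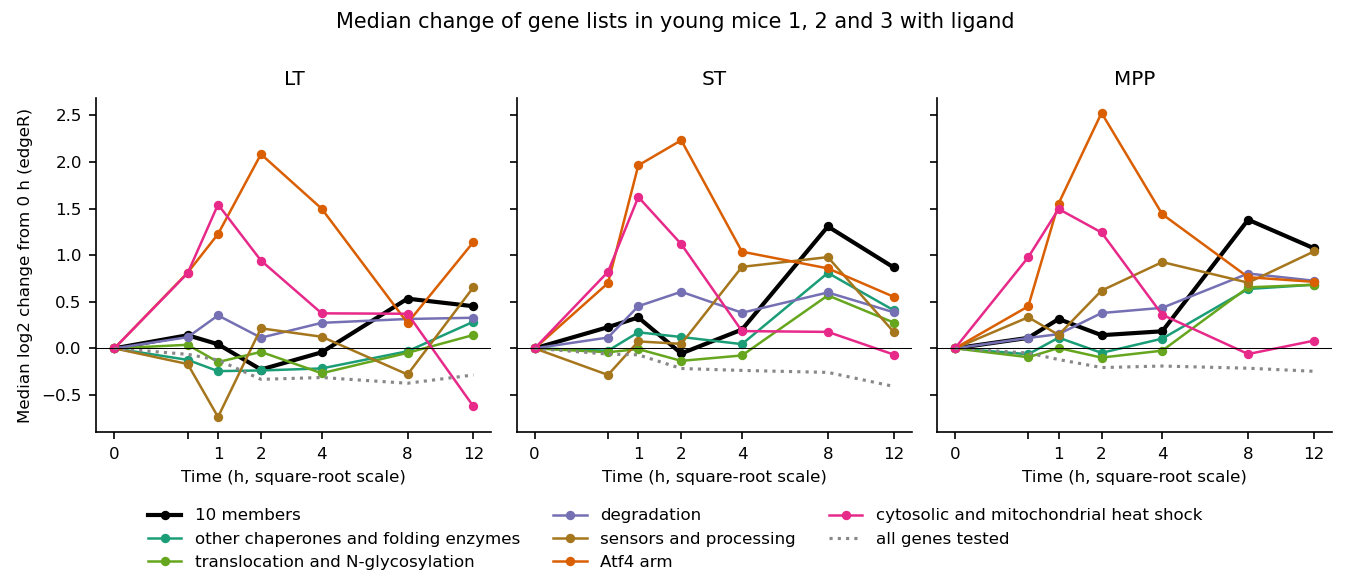
Median edgeR log2 change against 0 h in young mice 1, 2 and 3 with ligand, by time in h, for the 10 members, 6 other lists and all genes tested. The Atf4 arm is highest at 2 h, the heat shock list at 1 h and the members at 8 h in all 3 cell types.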

How the data were processed

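The deposited values are expected counts per gene, which the authors estimated with RSEM on mouse build mm9, per the submitters' processing notes; the RSEM version and the annotation are not given in the sources used here. Of the deposited values 89.5% are whole. Of 127 libraries, 6 with 7 to 41 counts were left out, technical repeats were summed, and the sums were rounded, giving 108 libraries. Libraries at 0 h were read as unstimulated, although the labels of those from young mice 1 and 2 and most from old mouse 2 name the ligands. The members and lists were chosen with earlier results of these data known.

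CPM is the count per 1000000 of the library total. Tests used edgeR 4.0.16 (R 4.3.3) with TMM scaling, filterByExpr, quasi-likelihood tests and Benjamini-Hochberg adjustment over all genes tested, at 0.05; the SE is the log2 change over the square root of F. The course fit used 63 libraries, the ligand fit 72, the cell type fit 12 and the age fit 18. Alternatives were DESeq2 1.42.0, limma 3.58.1 voom with quality weights, other scaling and filters, 1 repeat in place of the sum, mouse as a block and leaving out mice or libraries. All 10 members were named; of each other list, up to 4 genes that passed in the most stimulated comparisons were, and the 10 genes most like Hspa5.

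Cell types and times with 1 mouse number come from 1 animal, per the labels. The mean correlation of residuals was 0.279, 0.125 and 0.542 within young mice 1, 2 and 3, and -0.138, -0.0498 and -0.282 with the other mice. The tests were tried on simulated data first, where most of the planted changes did not pass edgeR's threshold. Floors cover counting error only. Promoters are RefSeq sequences of GRCm38.p6 and were used for their letters only, not with coordinates of mm9.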

Additional observations from a re-analysis of the deposited data

Results flagged for a closer look

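At 8 h some genes moved one way in all 4 mice with ligand and the other way in both mice without it, on the log2(CPM + 1) scale, in 9 of 30 pairs of gene and cell type. In LT it was Calr by 2.07 (mean change 0.93 with ligand and -1.13 without) and Pdia6 by 2.83 (mean change 0.59 with ligand and -2.24 without). In ST it was Hspa5 by 2.07 (mean change 1.70 with ligand and -0.37 without), Hsp90b1 by 2.86 (mean change 1.11 with ligand and -1.74 without), Pdia6 by 2.83 (mean change 1.19 with ligand and -1.65 without) and Sdf2l1 by 4.29 (mean change 1.38 with ligand and -2.91 without). In MPP it was Hspa5 by 2.00 (mean change 1.57 with ligand and -0.44 without), Pdia6 by 2.44 (mean change 1.15 with ligand and -1.29 without) and Manf by 3.35 (mean change 1.61 with ligand and -1.74 without). In the fit across all genes 0 of these differences passed without a block, and with mouse as a block Hspa5 in ST and MPP and Hsp90b1 in ST did. Ligand and mouse cannot be told apart. The share of all genes that moved opposite ways was not computed, so the 9 of 30 cannot be read alone. By a looser rule, every change with ligand above every change without, 6.37%, 9.05% and 15.2% of all genes separated in LT, ST and MPP.

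Of 30 groups of 4 young mice at 0 h, 1 held a sample far from the others. Sdf2l1 in MPP was at 61 CPM in young mouse 3, against 103 in the nearest other mouse, a gap of 0.910 of the group's range on the log2(CPM + 1) scale. Chance gives such a sample in about 1 of 20 groups.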

How the results depend on the processing

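Of 1532 alternatives to 115 member results, 1377 kept direction and side of the threshold, 82 gained a call, 44 lost it and 29 turned direction. The 115 were the 8 h changes in both courses, the ligand differences at 8 h, results that passed by edgeR at other times and some picked comparisons. The tally leaves out other results, among them Hspa5 in MPP at 2 and 12 h and Herpud1 in ST at 4 h, which gained calls. Counts of members called that moved by over 1.5 times were as follows, and the cause was not tested. They are given without the share of all genes called, which also moved with the setting, so they cannot be read alone. In MPP at 8 h edgeR called 0.292% of all genes higher, DESeq2 0.881% and limma voom 4.72%. With 1 repeat in place of the sum, the count was 0 for ST 0.5 h, 1 for LT 1 h, ST 8 h and 2 for MPP 12 h, MPP 2 h, ST 4 h. With DESeq2, the count was 1 for the LT ligand difference at 8 h, the LT minus MPP change, LT 4 h, LT 8 h, 2 for MPP without ligand 8 h, LT 1 h, MPP 12 h, ST 12 h, ST 4 h, 3 for the ST ligand difference at 8 h, 4 for the MPP ligand difference at 8 h, MPP 8 h and 5 for ST 8 h. With DESeq2 size factors, the count was 1 for MPP without ligand 8 h, MPP 1 h. With limma voom, the count was 1 for the MPP ligand difference at 2 h, MPP without ligand 8 h, 2 for MPP 0.5 h, ST 0.5 h, ST 4 h, 3 for MPP 4 h, 4 for the MPP ligand difference at 8 h, MPP 1 h, MPP 2 h, ST 1 h, 5 for ST 8 h and 10 for MPP 12 h, MPP 8 h. With mean of at least 5 CPM, the count was 1 for MPP without ligand 8 h and 2 for the MPP ligand difference at 8 h, MPP 12 h, MPP 2 h, ST 4 h. With no filter, the count was 0 for LT 2 h, MPP 4 h and 1 for MPP 1 h, ST 8 h. Fitted only the libraries compared, the count was 0 for ST 8 h and 3 for the MPP ligand difference at 8 h. With mouse as a replicate block, the count was 1 for LT 1 h, 2 for MPP without ligand 8 h, the ST ligand difference at 8 h, MPP 12 h, MPP 2 h, ST 4 h and 3 for the MPP ligand difference at 8 h. Fitted without libraries of fewer than 8000 detected genes, the count was 1 for MPP 0.5 h, 2 for MPP 12 h, MPP 2 h, ST 0.5 h, ST 4 h and 5 for MPP 8 h. With young mouse 4 added at 0 h, the count was 1 for LT 1 h, ST 8 h and 2 for MPP 12 h, MPP 2 h, ST 4 h. Leaving out each mouse in turn gave 0 to 1 in LT without ligand 8 h, MPP without ligand 8 h, the ST ligand difference at 8 h, LT 1 h, LT 2 h, MPP 2 h, MPP 4 h, ST 12 h, ST 2 h, ST 4 h, 0 to 2 in the MPP ligand difference at 8 h, MPP 1 h, MPP 12 h, ST 1 h, 0 to 3 in ST 8 h, 0 to 5 in MPP 8 h, and 0 in the other comparisons. Direction turned, under 1 or more alternatives each with its value, for Dnajb9 in LT without ligand 8 h (-0.57 to 0.75 with mice left out in turn), Herpud1 in the LT ligand difference at 8 h (-1.02 to 0.24 with mice left out in turn), Herpud1 in LT 8 h (-0.033 to 0.66 with mice left out in turn), Hsp90b1 in LT 8 h (-0.26 to 0.63 with mice left out in turn), Hspa5 in MPP without ligand 8 h (-0.39 to 0.0044 with mice left out in turn), Manf in ST without ligand 8 h (-0.72 to 0.23 with mice left out in turn, -0.046 with 1 repeat in place of the sum, -0.11 with DESeq2, -0.12 with DESeq2 size factors, -0.24 with limma voom, -0.033 with mean of at least 5 CPM, -0.055 with no filter, -0.065 with only the libraries compared and -0.15 with mouse as a replicate block), Pdia4 in LT 8 h (-0.16 to 1.04 with mice left out in turn), Xbp1 in LT without ligand 8 h (-1.15 to 0.59 with mice left out in turn, -0.00025 with 1 repeat in place of the sum, -0.062 with DESeq2, -0.062 with DESeq2 size factors, -0.25 with limma voom, -0.00088 with no filter and -0.33 with mouse as a replicate block), Xbp1 in ST without ligand 8 h (-0.12 to 1.33 with mice left out in turn), all with an adjusted p over 0.05. Mouse as a block changed no member call other than those given with the results. Libraries without ligand were shallower, and 2 mice limit that course.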
